A study of Mus musculus with 60 samples.

Results

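The ribosomal protein genes were taken as every protein-coding row of the count table whose symbol begins with Rpl or Rps followed by a number, by p0, p1 or p2, or by a, without the S6 kinases. The rule gave 91 of the 54352 rows, 57 named Rpl and 34 named Rps. Of these, 31 encode proteins of the small (40S) subunit, 43 proteins of the large (60S) subunit and 3 the acidic stalk of the large subunit. A further 6 are paralogs of a subunit gene (Rpl3l, Rpl10l, Rpl22l1, Rpl36al, Rpl39l and Rps27l), 6 carry the name of a pseudogene or retrocopy although the table types them as protein coding, and 2 (Rps19bp1 and Rpl7l1) are named after a ribosomal protein without being subunit proteins. All but Rpl10l had at least 1 count. Members that passed the filter on low counts numbered 85 in subcutaneous white adipose tissue (scWAT), 84 in visceral white adipose tissue (vWAT) and 84 in triceps muscle.

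The libraries were bulk 3′ digital gene expression libraries of C57BL/6JN mice, 60 in all, taken from 3 tissues of 20 mice (12 groups of 5). The mice received chow (10% of energy as fat) or a high-fat diet (HFD, 60%) for 6 weeks and either stayed sedentary or ran voluntarily on a wheel during the last 3 weeks (trained). All mice are labelled as 12 weeks old, and tissue was taken after 6 hours of fasting and 24 hours with the wheels locked, so the trained groups describe muscle and fat a day after the last run. Levels are given as CPM, counts per 1000000 counts of the library, and a gene was called where its Benjamini-Hochberg adjusted p from edgeR's quasi-likelihood test over all genes tested was below 0.05.

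Each cytoplasmic ribosome carries a single copy of almost every one of these proteins, and their messenger RNAs are among the most abundant in a cell. Many of them begin with a run of pyrimidines right after the cap, the 5′ terminal oligopyrimidine (5′TOP) motif, through which the mTOR pathway controls their translation, largely without a change in RNA level. In muscle the paralog Rpl3l takes the place of Rpl3, a protein next to the peptidyl transferase centre, and in other tissues Rpl3l is nearly silent.

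Start sites are shown for the pyrimidine motif the family is known for, and for the members on which the results turn. In the RefSeq promoter table of build GRCm38.p6, 66 members had an entry, with 78 start sites. A C at the first transcribed base followed by 4 bases that are each C or T was found at 14 member starts (17.9%), against 823 of the 32851 starts in the table (2.51%). The ETS-type motif CCGGAAG, searched on both strands in the 300 bases from 250 before to 50 after the start, was found at 27 member starts (34.6%) and at 2910 of all starts (8.86%). These letters were matched to annotated starts, which can lie a few bases from the start used in these tissues. In the windows printed here, 10 bases lie before the start and 20 from it, 5′ to 3′ on the gene's strand, and the capitals mark the first 5 transcribed bases. The first 4 are members with the motif, and the last 4 are members called between tissues or groups (for Rpl3l, the first of its 2 annotated starts).
Rps6 (chr4:86857348-86857377, minus strand): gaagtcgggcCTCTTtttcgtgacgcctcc
Rpl28 (chr7:4792955-4792984, plus strand): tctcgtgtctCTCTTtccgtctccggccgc
Rpl15 (chr14:18270967-18270996, minus strand): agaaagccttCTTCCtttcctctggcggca
Rps18 (chr17:33955646-33955675, minus strand): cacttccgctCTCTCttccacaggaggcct
Rpl4 (chr9:64173377-64173406, plus strand): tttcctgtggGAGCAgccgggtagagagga
Rpl12 (chr2:32961702-32961731, plus strand): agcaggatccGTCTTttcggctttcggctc
Rpl22l1 (chr3:28805498-28805527, plus strand): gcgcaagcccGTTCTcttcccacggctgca
Rpl3l (chr17:24727816-24727845, plus strand): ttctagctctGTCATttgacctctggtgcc
The pyrimidine run from the start was 13 bases long at Rpl15, 9 at Rps6 and Rps18 and 8 at Rpl28. At Rpl12 and Rpl22l1 the annotated start is a G that is followed by pyrimidines, at Rpl4 a purine-rich stretch, and at Rpl3l a stretch that is not a pyrimidine run.

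Total counts per library ran from 505336 to 744581, with a median of 666522.5. The marker genes of the labelled tissues were present: 12 adipocyte markers summed to 17897 to 41543 counts in scWAT and 28071 to 41026 in vWAT, against 408 to 1010 in triceps. In triceps, 15 skeletal muscle markers summed to 58277 to 117233 counts, against 16 to 2460 in vWAT. In scWAT the muscle markers ranged from 61 to 59414 counts, so that the highest scWAT library lay inside the triceps range. Of the 10 chow libraries of scWAT, 6 held 285 to 717 counts of 10 B cell markers together with 187 to 683 counts of T and NK cell markers and 403 to 1108 of lymph node stroma markers. In the other 14 scWAT libraries the B cell markers summed to 3 to 40 counts. The protocol pooled cDNA of 12 wells, but no label names the pools, and the library codes of each tissue are unbroken. As an assumption, the codes were cut after every 12, counted from the first of the numbering, into runs. This gives a run of 9 and a run of 11 in scWAT, both holding all 4 groups, and in vWAT and triceps a run of 5 with chow libraries, a run of 12 with all 4 groups and a run of 3 with HFD libraries. The chow sedentary libraries of the 3 tissues lie in separate stretches, so tissue and assumed run cannot be told apart in comparisons between tissues. Markers of other tissues stepped at these cuts in all 3 tissues. In scWAT, liver markers summed to 401 to 612 counts in the run of 9 and 18 to 160 in the run of 11. In vWAT, 8 heart markers summed to 237 to 318 counts in the run of 5 and 5 to 28 in the other vWAT libraries. The 8 intestine markers summed to 221 to 333 in the vWAT run of 3 and 0 to 12 in the other vWAT libraries. In triceps they summed to 180 to 229 in the run of 5 and 0 to 1 in the other triceps libraries.

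The 91 genes took between 2.74% and 8.65% of a library's counts. In vWAT the share ran from 4.38% to 6.89% over 20 libraries (median 5.42%), in triceps from 2.74% to 4.21% (median 3.52%) and in scWAT from 2.77% to 8.65% (median 4.62%). The spread in scWAT came from the chow groups. Chow sedentary mice had shares of 3.23%, 8.65%, 2.80%, 6.72% and 5.84%, and chow trained mice 2.77%, 6.97%, 3.45%, 5.61% and 7.70%. HFD sedentary mice had 3.82%, 3.96%, 4.91%, 5.10% and 5.00%, and HFD trained mice 3.63%, 3.37%, 4.39%, 4.39% and 4.84%. Within each diet the trained and sedentary mice overlapped, and both chow groups reached below and above every HFD library.

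**Figure D1:**
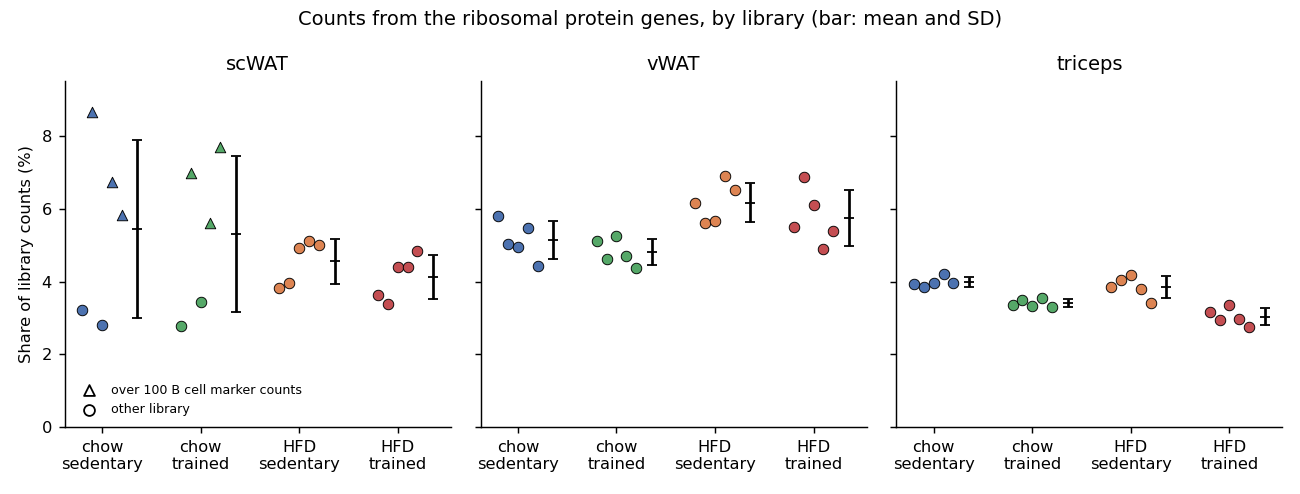
Share of each library's counts (%) that fell on the ribosomal protein genes, by tissue and group, with 1 point per library and the mean and SD of the 5 libraries beside them; triangles are libraries with over 100 B cell marker counts. In scWAT the 6 triangles lie at 5.61% to 8.65% and the other 4 chow libraries at 2.77% to 3.45%, below all but 1 of the HFD libraries (3.37% to 5.10%).

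The high chow libraries of scWAT were the 6 that held lymphoid markers. Their shares were 5.61% to 8.65%, whereas the other 4 chow libraries lay at 2.77% to 3.45%. The order was the same in both measures: 8.65% beside 717 B cell marker counts, 7.70% beside 632, 6.97% beside 616, 6.72% beside 614, 5.84% beside 363 and 5.61% beside 285. The split was present in both assumed runs. In the run of 9, the lymphoid-marker libraries had 6.97% to 8.65%, the other chow libraries 2.77% to 3.23% and the HFD libraries 3.37% to 3.96%. In the run of 11 the values were 5.61% to 7.70%, 3.45% (1 library) and 4.39% to 5.10%. On total counts, 78 of the 85 members tested were higher in all 6 of these libraries than in all 4 other chow libraries, against 9.79% of the 7069 genes tested. After TMM scaling it was 67 members, against 7.3% of genes. All 6 were above all 10 HFD libraries for 29 members on total counts (3.13% of genes) and for 45 after TMM scaling (4.29%). The other 4 chow libraries were below all 10 HFD libraries for 18 members on total counts (4.1% of genes) and for 1 after TMM scaling (1.05%). The median log2 ratio of both sets of libraries (means, with a pseudocount of 1 CPM) was 1.09 over members and 0.10 over all genes on total counts, and 0.90 and −0.06 after TMM scaling. In bulk tissue a change in the share of a cell type and a change of RNA per cell cannot be told apart.

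Rps27, a small-subunit protein, is an example of this split. In chow sedentary mice it stood at 619, 3970, 421, 2428 and 1912 CPM, and in chow trained mice at 528, 3072, 670, 1983 and 2923 CPM. The HFD libraries held 685 to 1082 CPM. All 6 lymphoid-marker libraries were above every other scWAT library, and the other 4 chow libraries were below every HFD library. Its paralog Rps27l, a p53 target, did not follow: it lay at 328 to 443 CPM in the 10 chow libraries and 332 to 523 CPM in the 10 HFD libraries. As a share of both genes' counts, Rps27l made up 8.57% to 51.3% across the scWAT libraries, against 25.5% to 38.5% in vWAT and 25.6% to 38.3% in triceps.

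Against this spread, no ribosomal protein gene was called for HFD in sedentary scWAT. The test asks whether 6 weeks of HFD changed the tissue of mice that did not run. edgeR called 0 of 85 members (11 at an unadjusted p under 0.05) and DESeq2 also 0, where edgeR called 6.35% of all genes. The members' median log2 fold change was −0.36, with 80 of 85 below 0, and that of all genes −0.05. Without the 6 lymphoid-marker libraries the median turned to 0.35, with 84 of 86 above 0 and 0 called by edgeR (8 at an unadjusted p under 0.05), where 1.79% of all genes were called; DESeq2 was not run without them. The fit without them kept only chow sedentary replicates 1 and 3, both of the assumed run of 9, against HFD sedentary libraries of both runs. Diet and run are thus partly mixed in it. Shares of these 2 chow libraries were 3.23% and 2.80%. HFD sedentary libraries had 3.82% and 3.96% in the run of 9 and 4.91% to 5.10% in the run of 11. With all 20 libraries, small-subunit genes had a median of −0.47 and large-subunit genes of −0.36, while the paralogs had −0.01. Rpl13a, a large-subunit protein with a role in silencing of inflammatory transcripts, stood at −0.86 (SE 0.33, adjusted p 0.132) and Rps27 at −1.14 (SE 0.50, adjusted p 0.2). The stalk genes Rplp0, Rplp1 and Rplp2, which recruit elongation factors, stood at −0.32 (SE 0.21), −0.27 (SE 0.25) and −0.36 (SE 0.21).

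In trained mice, HFD lowered 1 of the 85 members in scWAT, Rpl4 (chr9:64173375-64178666, plus strand, mm10), a large-subunit protein that lines the peptide exit tunnel. In chow trained mice Rpl4 stood at 345, 937, 471, 722 and 982 CPM, and in HFD trained mice at 437, 446, 486, 432 and 480 CPM. The 3 high chow trained libraries are lymphoid-marker libraries, the lowest of the 10 values is also a chow library, and the groups overlap. The log2 fold change was −0.85 (SE 0.25, adjusted p 0.0441), where 5.16% of all genes were called and 2.01% were called lower. Without the lymphoid-marker libraries Rpl4 stood at −0.25 (SE 0.21, adjusted p 0.651). Over members the median was −0.58, with 83 below 0 and 50 at an unadjusted p under 0.05, against −0.03 over all genes. Without the 6 libraries the median was −0.02 and 0 of 86 were called by edgeR (2 at an unadjusted p under 0.05), where 1.92% of all genes were called. The count of called members ran from 0 to 34 when single libraries were left out, and it was 34 without chow trained replicate 1, a low library without lymphoid markers. Rpl4 kept its call in 7 of these 20 fits.

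Running did not bring any member past the threshold in scWAT. On chow, 0 of 85 were called by edgeR (0 at an unadjusted p under 0.05) and by DESeq2, with 0% of all genes called and a member median of 0.08. On HFD, again 0 were called by both tools (0 at an unadjusted p under 0.05 by edgeR), with 1% of all genes called and a member median of −0.14. The diet by training interaction gave 0 calls by both tools (0 at an unadjusted p under 0.05 by edgeR), with 0% of all genes called. On total counts Rpl4 was the 1 member whose HFD trained libraries (432 to 486 CPM) all lay below the HFD sedentary libraries (492 to 616 CPM), where 1.53% of genes did so.

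**Figure D2:**
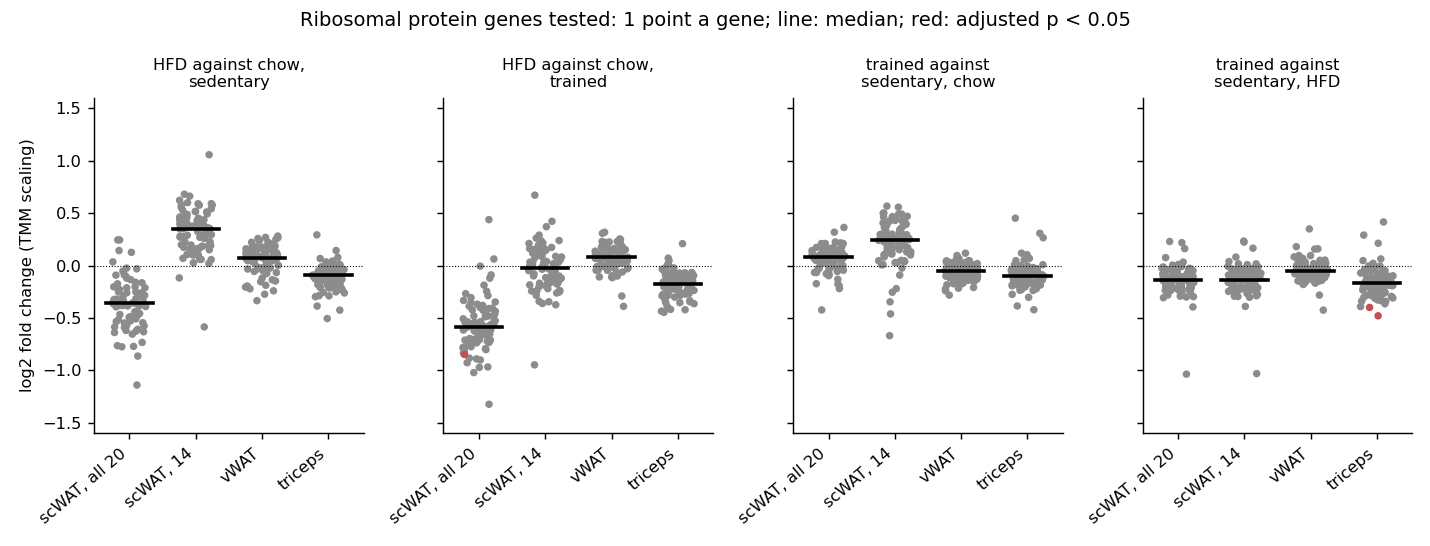
Log2 fold change (TMM scaling) of each ribosomal protein gene tested, 1 point per gene, for 4 comparisons in scWAT with all 20 libraries, scWAT with the 14 libraries under 100 B cell marker counts, vWAT and triceps; the line is the median and red points have an adjusted p below 0.05. The scWAT median for HFD in sedentary mice lies at −0.36 with all libraries and at 0.35 with 14, while vWAT and triceps medians lie between −0.17 and 0.08. Of chow sedentary scWAT, the 14 hold only replicates 1 and 3, both of the assumed run of 9.

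In vWAT no member was called in any comparison. For HFD in sedentary mice edgeR called 0 of 84 (4 at an unadjusted p under 0.05), DESeq2 0, and 8.07% of all genes were called. The median was 0.08 over members and −0.01 over all genes. The median SE of a member was 0.13, so that the fit was about as precise here as in triceps (0.12) and more so than in scWAT (0.28). By total counts HFD libraries held more of these transcripts, 4.89% to 6.89% against 4.38% to 5.79% in chow. On that scale the median of all genes also moved, by 0.21, and 20 members were called higher, as were 10.8% of all genes. For 9 members all HFD sedentary libraries lay above all chow sedentary ones on total counts, against 8.17% of genes. Relative to all genes the members' median was 0.09 on both scales. Within the run of 12 libraries that holds all groups it was 0.15 relative to all genes. For HFD in trained mice the counts were 0 of 84 by both tools (2 at an unadjusted p under 0.05 by edgeR), with 2.62% of all genes called and a member median of 0.08. Training gave 0 calls by both tools on chow (0 at an unadjusted p under 0.05 by edgeR, 0.587% of all genes called, median −0.05). On HFD it also gave 0 (1 at an unadjusted p under 0.05, 3.09% of all genes called, median −0.05). The interaction gave 0 (1 at an unadjusted p under 0.05, 0.0143% of all genes called).

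Rps27l was the 1 member in vWAT whose groups did not overlap after TMM scaling, which 3.1% of genes did in the same direction. In CPM on total counts, HFD sedentary mice stood at 598, 577, 563, 630 and 652 and chow sedentary mice at 462, 420, 460, 474 and 362. HFD trained mice stood at 449, 493, 508, 427 and 507 CPM and chow trained mice at 433, 409, 392, 376 and 406 CPM. All 5 HFD sedentary libraries lay above all 15 others. The test did not call it: HFD in sedentary mice gave a log2 fold change of 0.27 (SE 0.11, adjusted p 0.128) and training on HFD −0.28 (SE 0.11, adjusted p 0.158). For the second comparison, 1.82% of genes were lower without overlap. Its partner Rps27 stood at 0.05 (SE 0.15) and 0.03 (SE 0.15).

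In triceps the trained mice held a smaller share of ribosomal protein transcripts. Chow sedentary mice had 3.93%, 3.84%, 3.96%, 4.21% and 3.96%, and chow trained mice 3.36%, 3.49%, 3.33%, 3.56% and 3.29%. HFD sedentary mice had 3.84%, 4.05%, 4.18%, 3.79% and 3.41%, and HFD trained mice 3.17%, 2.95%, 3.35%, 2.96% and 2.74%. Within each diet every trained library was below every sedentary one. Mitochondrially encoded transcripts moved the other way, with 23.9% to 33.6% of counts in sedentary and 32.3% to 43.2% in trained mice. Of the counts from nuclear genes, the members took 5.08% to 5.82% in sedentary and 4.28% to 5.70% in trained mice, and these ranges overlap. Calls in triceps therefore depend on whether counts are scaled to the total or by TMM, which scales each library to the bulk of its genes.

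After TMM scaling, training on HFD lowered 2 of 84 members in triceps, Rpl12 and Rpl22l1, where 5.35% of all genes were called and 2.02% were called lower. Rpl12 (chr2:32961559-32965345, plus strand, mm10) is a large-subunit protein at the base of the stalk. It stood at 176, 188, 158, 168 and 114 CPM in HFD sedentary and 115, 99.6, 97.7, 112 and 81.9 CPM in HFD trained mice. Only HFD sedentary replicate 5, at 114 CPM, fell among the trained values. The log2 fold change was −0.48 (SE 0.14, adjusted p 0.0245). On chow Rpl12 stood at 134, 165, 148, 181 and 156 CPM in sedentary and 130, 140, 101, 118 and 123 CPM in trained mice, a log2 fold change of −0.23 (SE 0.13, adjusted p 0.555).

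Rpl22l1 (chr3:28805436-28807424, plus strand), the paralog of the large-subunit protein Rpl22, stood at 405, 488, 564, 466 and 416 CPM in HFD sedentary and 313, 233, 373, 335 and 309 CPM in HFD trained mice. On chow it stood at 413, 423, 457, 538 and 484 CPM in sedentary and 308, 334, 314, 306 and 357 CPM in trained mice. In both diets the trained libraries were all below the sedentary ones on total counts. The log2 fold change was −0.40 (SE 0.12, adjusted p 0.0347) on HFD and −0.39 (SE 0.12, adjusted p 0.102) on chow, and the interaction was −0.01 (SE 0.17). Rpl22 itself stood at −0.31 (SE 0.12, adjusted p 0.109) on HFD and −0.09 (SE 0.11) on chow. Leaving out single libraries, Rpl12 kept its call in 13 of 20 fits and Rpl22l1 in 14, and the number of called members ran from 0 to 5. Without a filter on low counts the adjusted p was 0.0939 for Rpl12 and 0.109 for Rpl22l1. With the assumed run as a factor on all 20 libraries Rpl12 was not called (−0.40, adjusted p 0.0578) and Rpl22l1 was (−0.38, adjusted p 0.0386). Within the run of 12 libraries 0 members were called, with Rpl12 at −0.48 (adjusted p 0.0577) and Rpl22l1 at −0.41 (adjusted p 0.1).

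**Figure D3:**
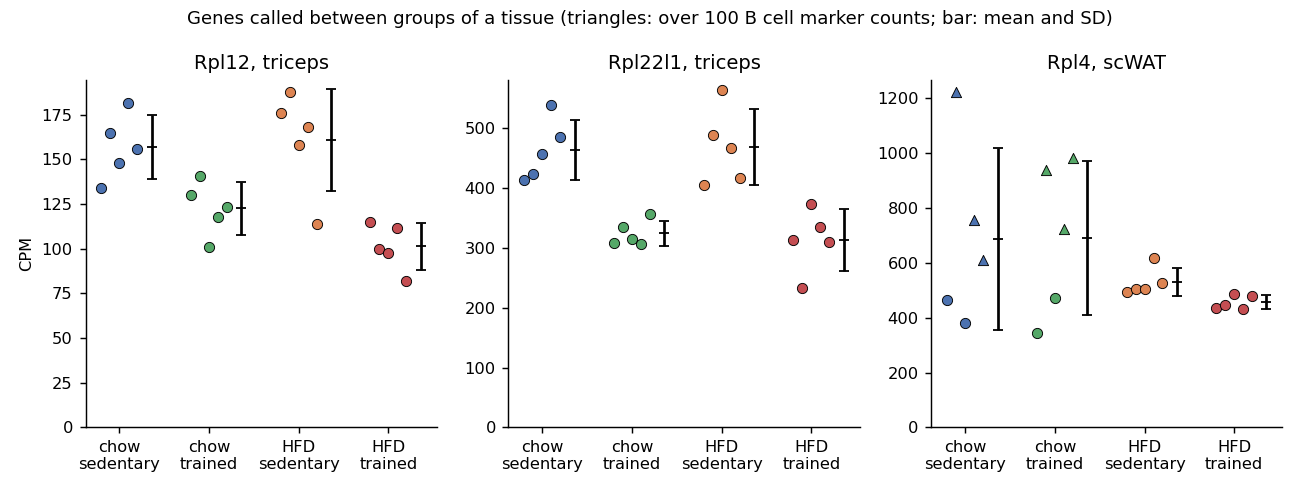
CPM of the 3 members called between groups of 1 tissue, 1 point per library with the mean and SD of 5 libraries beside them; triangles are libraries with over 100 B cell marker counts. Rpl12 and Rpl22l1 in triceps are called lower in trained mice on HFD only. Sedentary and trained values of Rpl12 overlap in both diets, on HFD through 1 sedentary value (114 CPM). The high chow values of Rpl4 in scWAT are triangles.

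Most other members were also below 0 for training on HFD in triceps but were not called. The member median for training on HFD was −0.17, with 78 of 84 below 0 and 20 at an unadjusted p under 0.05, against −0.01 over all genes. On total counts the all-gene median moved by −0.19 and 53 members were called lower, as were 7.96% of all genes. Relative to all genes the member median was −0.16 after TMM scaling and −0.17 on total counts. On total counts all HFD trained libraries lay below all HFD sedentary ones for 38 members (5.85% of genes), and on chow the same held for 25 members (3.67%). DESeq2 called 9 members lower, and 90 of the 20693 genes it fitted (0.435%). That fit had no filter on low counts beforehand, but DESeq2's default filter on mean count applied when p was adjusted. edgeR tested 4410 genes, so both shares have unlike bases. Within the run of 12 libraries the member median was −0.07 relative to all genes, and the run of 3, which held 1 HFD sedentary and 2 HFD trained libraries, also differed in brain markers (120 to 157 counts there, 23 to 60 in the other triceps libraries). Its part in the result was not tested. The 3 highest members were Rpl3 at 0.42 (SE 0.18, adjusted p 0.195), Rpl7l1 at 0.29 (SE 0.26) and the stalk gene Rplp0 at 0.21 (SE 0.11), and none of them was called. On chow, training gave 0 calls by edgeR (4 at an unadjusted p under 0.05) and 1 by DESeq2, with 0.748% of all genes called and a member median of −0.10.

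Diet made no call among the members in triceps. For HFD in sedentary mice edgeR and DESeq2 called 0 of the members (6 at an unadjusted p under 0.05 by edgeR), with 0% of all genes called and a member median of −0.09. Rps4x, a small-subunit protein encoded on the X chromosome, had the lowest unadjusted p among the members, with a log2 fold change of −0.43 (SE 0.13, adjusted p 0.679). For HFD in trained mice both tools called 0 (22 at an unadjusted p under 0.05 by edgeR), with 0% of all genes called and a median of −0.17. The interaction gave 0 calls by both tools (2 at an unadjusted p under 0.05 by edgeR), with 0% of all genes called. After TMM scaling members whose groups did not overlap included Rpl41 and Rps29 for HFD in sedentary mice, where 0.499% of genes were lower in this way, and Rpl28 and Rpl36a-ps1 for HFD in trained mice, where 0.658% were. They included Rpl22l1 for training on chow, where 1.16% of genes were lower in this way, and Rpl5 and Rpl8 for training on HFD, where 1.95% were. Rpl5, which binds 5S ribosomal RNA and p53's regulator Mdm2 together with Rpl11, stood at −0.34 (SE 0.12, adjusted p 0.0875) for training on HFD, and Rpl11 at −0.12 (SE 0.12).

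Members with known duties outside the ribosome or in its signalling were followed across all 3 tissues. Rps6, which is phosphorylated by the S6 kinases downstream of mTOR, had 436 to 535 CPM in triceps of chow sedentary mice, 377 to 430 CPM in chow trained, 469 to 560 CPM in HFD sedentary and 363 to 473 CPM in HFD trained mice. On chow all trained libraries lay below the sedentary ones on total counts, and on HFD the ranges overlapped. After TMM scaling its log2 fold change for training was −0.11 (SE 0.10) on chow and −0.16 (SE 0.10) on HFD, neither called.

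Rpsa, a small-subunit protein that also serves as a laminin receptor, had 307 to 502 CPM in triceps of HFD sedentary mice and 279 to 306 CPM in HFD trained mice. These ranges only just separated on total counts, and the log2 fold change after TMM scaling was −0.27 (SE 0.12, adjusted p 0.192). In scWAT, HFD in sedentary mice gave −0.77 (SE 0.32, adjusted p 0.167) for Rpsa and −0.61 (SE 0.28, adjusted p 0.202) for Rps6. In vWAT the same comparison gave −0.07 (SE 0.12) and 0.05 (SE 0.11). Rps27a, which is made as a fusion with ubiquitin, stood at −0.34 (SE 0.26) in scWAT, 0.27 (SE 0.12, adjusted p 0.216) in vWAT and −0.13 (SE 0.11) in triceps for HFD in sedentary mice. Rpl5 and Rpl11, which enter the ribosome together with 5S RNA, stood at −0.59 (SE 0.22, adjusted p 0.117) and −0.17 (SE 0.23) in scWAT, 0.17 (SE 0.12) and 0.06 (SE 0.12) in vWAT, and 0.07 (SE 0.12) and −0.02 (SE 0.12) in triceps. None of these members was called for diet or training in any tissue.

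Rpl3 and Rpl3l divided the tissues. Rpl3 (chr15:80077791-80091868, minus strand, mm10) stood at 71.4, 76.9, 71.9, 50.7 and 70.2 CPM in triceps of chow sedentary mice and at 583, 554, 564, 518 and 438 CPM in their vWAT. Rpl3l (chr17:24727820-24736143, plus strand) stood at 190, 227, 232, 287 and 178 CPM in triceps and at 1.72, 1.63, 4.38, 0 and 0 CPM in vWAT. The ranges of both genes were far apart in opposite directions. In the joint fit of all 60 libraries with the animal as a block, triceps against vWAT gave a log2 fold change of −1.99 (SE 0.27, adjusted p 6.89e-08) for Rpl3 and 7.94 (SE 0.82, adjusted p 4.29e-10) for Rpl3l. On total counts these were −2.99 and 6.98.

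Rpl3l made up 77.8% of the counts of both genes in triceps, 69.8% to 86.3% in single libraries, and 0.377% in vWAT. These shares are of 3′ tags, which do not scale with transcript length. By group the pooled share in triceps was 76.4% in chow sedentary, 79.9% in chow trained, 80.4% in HFD sedentary and 74.4% in HFD trained mice, and the ranges over libraries overlapped in all 4. Neither gene was called for diet or training in triceps: Rpl3l stood at 0.10 (SE 0.12) for training on chow and −0.07 (SE 0.12) on HFD. Their reads were separable to different degrees, since the last 500 bases of Rpl3l transcripts shared no stretch of 50 bases with another gene, while 58.6% of those of Rpl3 were shared.

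In scWAT, Rpl3l was at most 77.6 CPM and followed the skeletal muscle markers. The 4 highest libraries were HFD sedentary replicate 4 at 77.6 CPM with 39417 muscle marker counts, chow trained replicate 3 at 68.3 CPM with 59414, chow trained replicate 4 at 30.8 CPM with 25407 and chow sedentary replicate 1 at 17.0 CPM with 16663. These were also the 4 libraries with the most muscle marker counts. In the other 16 scWAT libraries Rpl3l ran from 0 to 11.3 CPM, with muscle markers at 61 to 8034 counts.

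**Figure D4:**
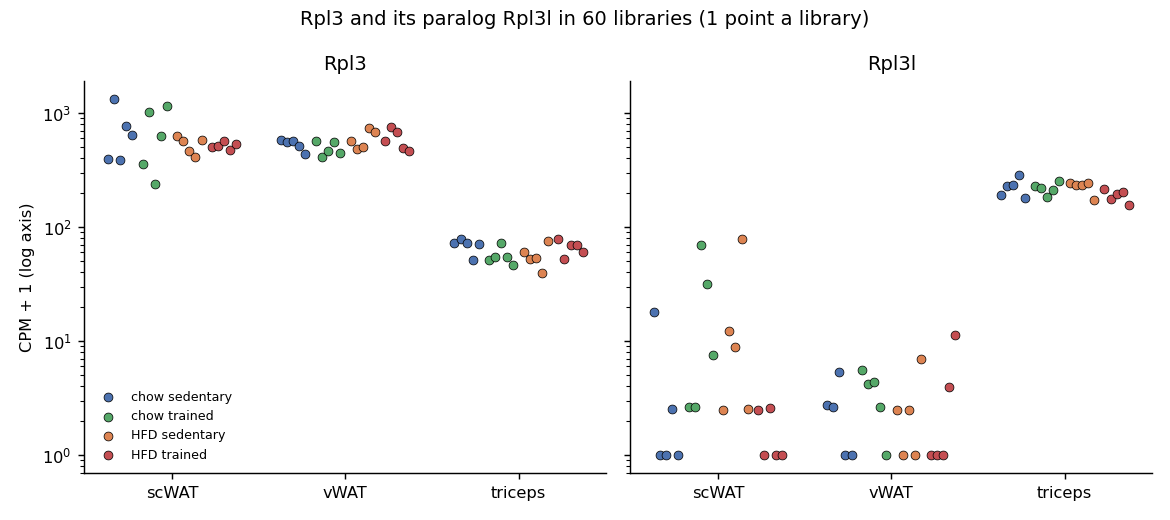
CPM plus 1 of Rpl3 (left) and Rpl3l (right) on a log axis in 60 libraries, 1 point per library, by tissue and coloured by group. Rpl3 in triceps lies at 38.6 to 77.2 CPM, below all fat libraries, and Rpl3l in triceps at 154 to 287 CPM, above all fat libraries.

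Among the other paralogs, Rpl22l1 made up 62.3% of the counts of Rpl22 and Rpl22l1 in triceps, 56.8% in vWAT and 54.2% in scWAT. Rpl36al made up 72.9% of the counts it shares with Rpl36a in triceps, 63.4% in vWAT and 61.8% in scWAT. Rpl39l, described in the testis as a counterpart of Rpl39, a small protein of the exit tunnel, was detected in scWAT in 19 of 20 libraries, with 159 counts in all. In vWAT it had 2 counts, both in 1 library, and in triceps 0, which allows up to 3 counts per group. In chow sedentary mice scWAT had 41 counts against 0 in vWAT and in triceps, over 5 libraries each. The pooled scWAT level was 13.8-fold the level that 3 counts would give in vWAT and 15.3-fold that in triceps. These ratios leave out the spread of the scWAT level among mice. Over 20 scWAT libraries it ran from 0 to 28.1 CPM, and the diet and training groups overlapped. Rpl10-ps3, named as a pseudogene, took nearly all counts that it shares with Rpl10, which received 0.171% to 0.283% of them in the 3 tissues. Since 93.8% of the 50-base stretches in the last 500 bases of Rpl10-ps3 are shared with other genes, mostly Rpl10, the division between both loci is uncertain.

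Relative to the 8501 genes of the joint fit, the members' median was higher in triceps than in vWAT. The fit of triceps alone kept 4410 genes, so the 8501 include genes with counts too low for it. In chow sedentary mice, after TMM scaling, 61 of 86 members were called higher and 2 lower. Of all genes 58.6% were called, 26.6% higher and 32% lower. The member median was 0.64 and that of all genes −0.23. The direction of single members depends on the scaling. On total counts the median of all genes moved by −0.98, and 1 member was called higher (11.6% of all genes) and 34 lower (64% of all genes), with a member median of −0.34. Relative to all genes the member median was 0.88 on both scales. The 20 triceps libraries held mitochondrial transcripts at 23.9% to 43.2% of counts and vWAT libraries at 6.14% to 20.2%. With these genes left out and the rest scaled to its total, 8 members were called higher (14.9% of all genes) and 13 lower (55.5%). The member median was then −0.085 and that of all genes −0.947. Of the counts from nuclear genes, members took 5.27% to 5.82% in triceps of chow sedentary mice and 5.45% to 6.80% in their vWAT.

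By subunit, after TMM scaling 21 of 31 small-subunit genes were called higher in triceps and 0 lower, beside 26.6% and 32% of all genes. Of 42 large-subunit genes, 31 were called higher and 1, Rpl3, was called lower. On total counts 1 of all 86 members was called higher and 34 lower. Rpl4 stood at 606, 653, 627, 681 and 732 CPM in triceps of chow sedentary mice and at 529, 508, 502, 512 and 467 CPM in their vWAT. On total counts its log2 fold change was 0.37 (SE 0.19, adjusted p 0.0696), and it was not called on that scale. All 3 stalk genes were called higher, with Rplp0 at 0.94 (SE 0.17), Rplp1 at 0.66 (SE 0.19) and Rplp2 at 0.43 (SE 0.16), each below 0 on total counts (−0.05, −0.33 and −0.57). Among members with the lowest adjusted p, Rps25 at 1.35 (SE 0.17), Rpl22l1 at 1.36 (SE 0.17), Rpl24 at 1.21 (SE 0.16), Rpl4 at 1.37 (SE 0.19) and Rpl36al at 1.19 (SE 0.14) stayed above 0 on both scales. Rpl30 at 0.96 (SE 0.16) was at −0.03 on total counts. The 1 member called higher on that scale was Rpl3l, so none of these was called higher there. Rps6, the classical substrate of the S6 kinases, stood at 0.26 (SE 0.19, adjusted p 0.257) and Rpl11 at −0.06 (SE 0.18, adjusted p 0.801). Rpl7l1, which works in ribosome assembly, was lower, with −0.62 (SE 0.23, adjusted p 0.016) and −1.61 on total counts. Its call after TMM scaling was lost without the mouse of chow sedentary replicate 2 (adjusted p 0.0601) or 3 (adjusted p 0.0706). Of the subunit genes whose symbols fall outside the rule, Rack1 stood at 0.74 (SE 0.20, adjusted p 0.00131) and Fau at −0.04 (SE 0.22).

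**Figure D5:**
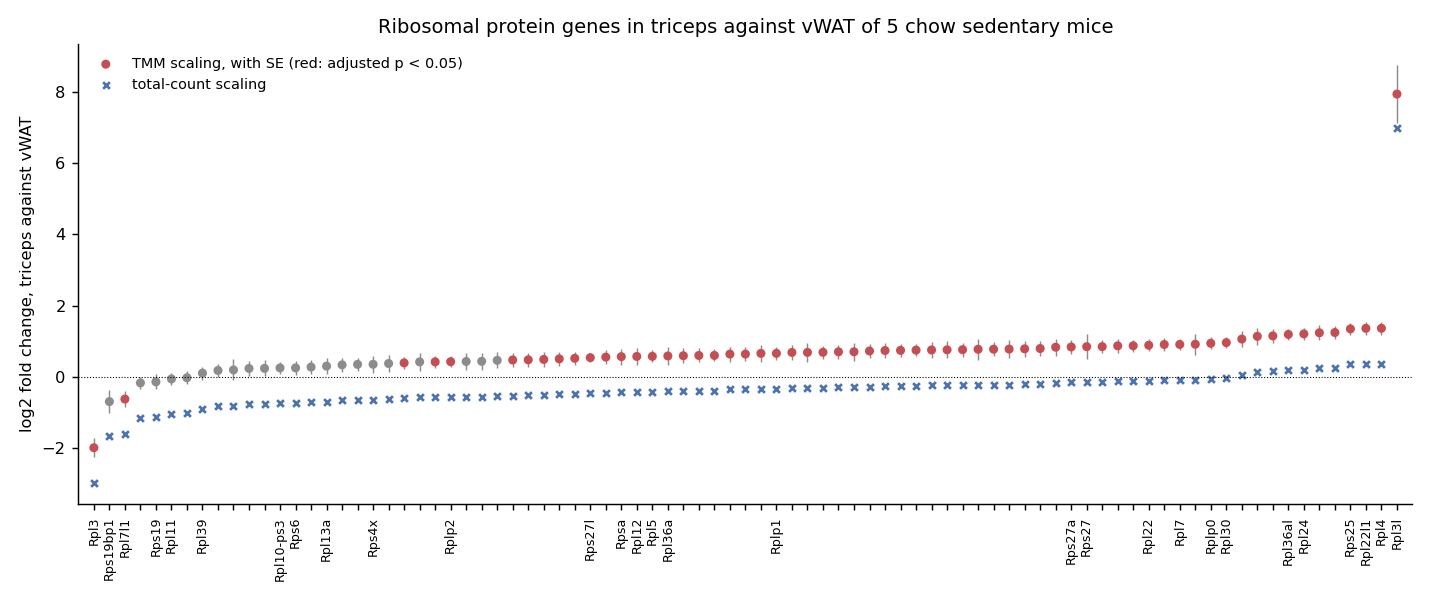
Log2 fold change of each member (except Rpl39l, which had no counts in either group) in triceps against vWAT of 5 chow sedentary mice, ordered by the TMM-scaled value (circles with SE, red where the adjusted p is below 0.05), with the total-count value as crosses and names for members described in the text. Rpl3 is at the low end with −1.99 and Rpl3l at the high end with 7.94, and the crosses run below the circles by about the all-gene shift of −0.98.

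Between both fat depots of chow sedentary mice, 4 of 86 members were called, 2 higher and 2 lower in scWAT, against 11.7% of all genes (5.6% higher and 6.12% lower). Rps19bp1 (chr15:80260615-80264315, minus strand), which binds Rps19 and is a nucleolar factor, stood at 22.4, 29.3, 39.4, 23.4 and 22.3 CPM in vWAT and 13.9, 9.89, 9.72, 13.8 and 16.8 CPM in scWAT. The depots did not overlap, and the log2 fold change of scWAT against vWAT was −1.01 (SE 0.30, adjusted p 0.0186). Without the lymphoid-marker libraries it was −1.18 (SE 0.46, adjusted p 0.167), and the call was also lost without the mouse of chow sedentary replicate 2 (adjusted p 0.104) or 3 (adjusted p 0.122). Rpl39 stood at 344, 608, 314, 636 and 499 CPM in scWAT and 872, 711, 665, 766 and 620 CPM in vWAT. The scWAT library at 636 CPM, which holds lymphoid markers, was the 1 inside the vWAT range. Its log2 fold change was −0.57 (SE 0.19, adjusted p 0.0379) and −1.10 (SE 0.23, adjusted p 0.00246) without those libraries. The call was lost without the mouse of chow sedentary replicate 1 (−0.38, adjusted p 0.259), 2 (adjusted p 0.0542) or 3 (adjusted p 0.0961), and with mitochondrial genes left out and total-count scaling (adjusted p 0.0526). Rps19, a small-subunit protein, stood at 1049, 3724, 1029, 2374 and 1918 CPM in scWAT and 1381, 1250, 1259, 1315 and 993 CPM in vWAT. The 3 scWAT libraries with lymphoid markers were above all vWAT libraries and the other 2 were not. Its log2 fold change was 0.64 (SE 0.21, adjusted p 0.0383), but −0.19 without those libraries. Its call was also lost without the mouse of replicate 2 (0.38, adjusted p 0.362), 4 (adjusted p 0.184) or 5 (adjusted p 0.166) alone. The other called member was Rpl39l (chr16:10170226-10174911, plus strand). Without the lymphoid-marker libraries, which leaves 2 chow sedentary libraries of scWAT, 51 members were called, 50 of them lower in scWAT (3.36% of all genes called, 2.16% lower), and the member median moved from −0.03 to −0.78. A difference of the HFD effect in sedentary mice between the depots was called for 0 of 86 members by edgeR (20 at an unadjusted p under 0.05, 1.64% of all genes called), and DESeq2 was not run on the joint counts. The median difference, scWAT minus vWAT, was −0.44, and 0.33 without the lymphoid-marker libraries.

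Genes that act on or with the ribosome were followed in 5 lists: elongation factors, initiation factors, assembly and nucleolar factors, RNA polymerase I genes and growth signalling. The elongation list also holds Tpt1 and the kinase Eef2k, and the initiation list the repressor Eif4ebp1. For HFD in sedentary scWAT, 1 of 8 genes tested in the elongation list (Tpt1), 1 of 31 in the initiation list (Eif4h) and 1 of 12 growth-signalling genes were called, where 6.35% of all genes were called. In trained scWAT it was 1 of 8 in the elongation list (Tpt1), 1 of 23 assembly factors and 1 of 12 growth-signalling genes, where 5.16% of all genes were called. In scWAT, HFD lowered Tpt1, a growth-related protein with a 5′TOP transcript, by 0.68 on the log2 scale in both sedentary (adjusted p 0.0244) and trained mice (adjusted p 0.0302). HFD also lowered the initiation factor Eif4h in sedentary mice (−0.67, adjusted p 0.0302) and the nucleolar chaperone Npm1 in trained mice (−0.83, adjusted p 0.0242). It raised Rps6ka3, an S6 kinase of the RSK family, in sedentary (0.97, adjusted p 0.00213) and trained mice (0.98, adjusted p 0.00396). Without the 6 lymphoid-marker libraries none of these 6 calls was kept. Tpt1 then stood at −0.41 (adjusted p 0.404) in sedentary and −0.63 (adjusted p 0.108) in trained mice, Eif4h at −0.62 (adjusted p 0.269) and Npm1 at −0.30 (adjusted p 0.532). Rps6ka3 stood at 0.71 (adjusted p 0.177) and 0.94 (adjusted p 0.0895). Akt2, an insulin-signalling kinase, rose with training on HFD in scWAT (1.05, adjusted p 0.00728, and 0.00523 without those libraries) and in vWAT (0.69, adjusted p 0.0379), where 1% and 3.09% of all genes were called. In vWAT, Eif4ebp1, the repressor of cap-dependent initiation, fell with HFD in sedentary mice (−0.51, adjusted p 0.044; 8.07% of all genes called), and the elongation factor subunit Eef1g rose with HFD in trained mice (0.47, adjusted p 0.0289; 2.62% of all genes called). In triceps none of these genes was called for diet or training.

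Between triceps and vWAT, 26.6% of all genes were called higher and 32% lower after TMM scaling, and the list counts are set beside these shares. On total counts all genes shift by −0.98. Of 9 genes tested in the elongation list, 7 were higher in triceps, Tpt1 and Eef2k among them, and 1 lower. Eef1a1 was lower (−2.28, SE 0.18), while Tpt1 and Eef1g were higher (1.72, SE 0.14, and 1.42, SE 0.16). Of 31 genes in the initiation list, 18 were higher and 3 lower, the repressor Eif4ebp1 among the lower. Of 25 assembly and nucleolar factors tested, 11 were higher and 0 lower, of 10 RNA polymerase I genes 3 were higher and 0 lower, and of 14 growth-signalling genes 3 were higher and 2 lower. Eef1a2, the elongation factor form of muscle and neurons, was chosen after its value was seen and stood at 7.03 (SE 0.89, adjusted p 9.67e-08), so that the Eef1a pair differed between the tissues in opposite directions, as Rpl3 and Rpl3l did.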

How the data were processed

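In the 60 libraries, cDNA was made from RNA by a template-switching reaction and pooled over 12 wells before the 3′ ends were sequenced, per the labels' protocols. The submitters' processing notes name Salmon 0.14.2 and the build mm10. The deposited table holds expected counts that the authors had rounded to whole numbers, which were used in all tests, and a deposited log2 column (log2 of CPM plus 1), used to check the unit. For strand and molecular identifiers, the setting is not given in the sources used here. Intervals on counts of 0 cover counting error only.

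Each tissue was fitted with edgeR 4.0.16 in R 4.3.3 (TMM, filterByExpr by group, robust quasi-likelihood, 4 groups), which left 7069, 6990 and 4410 genes in scWAT, vWAT and triceps. Tissues were compared in a joint fit of 8501 genes with the animal as a block, which does not separate tissue from assumed run. A member's SE is its log2 fold change divided by the square root of its F statistic. Adjusted p-values are two-sided, by Benjamini-Hochberg, in edgeR over all genes of a fit. In DESeq2 they are over the genes left by its default filter on mean count. DESeq2 1.42.0, total-count and RLE scaling, other filters, leaving out libraries, runs of library codes (an assumed cut after every 12 codes), addition of the counts of 301 pseudogene rows (2.45% of the family's counts) and removal of mitochondrial genes with total-count scaling were tried as alternatives; limma 3.58.1 was used only within these tools. The scripts were tested on simulated counts. Sequences and starts are from RefSeq for GRCm38.p6, gene coordinates from GENCODE. Named were members called in a contrast (all where 5 or fewer, otherwise up to 8 per direction, ranked by adjusted p), the paralog pairs, the stalk, Rpsa, Rps6, Rpl5, Rpl11, Rpl13a and Rps27a, and up to 3 called genes per pathway list. Members and lists were chosen with earlier results of these data known.

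Tags are short, so members with near-identical copies are uncertain: over the last 500 bases a median of 27.3% of 50-base stretches occur in another gene, above 50% for 18 members and above 90% for 2 (Rpl10-ps3 and Rps27rt). Not tested in any fit, for low counts, were Rpl10, Rpl10l, Rpl36-ps4, Rpl9-ps1 and Rps27rt. The separate fits of scWAT and vWAT also left out Rpl3l, those of vWAT and triceps Rpl39l, and that of triceps Rps19bp1. Values of some genes are not reported here.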

Additional observations from a re-analysis of the deposited data

Results flagged for a closer look

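Of 52 sets of 5 libraries examined for the named members, 5 held a library whose gap to its nearest neighbour exceeded 0.71 of the whole range, Dixon's limit at 95%, which chance passes in about 1 set in 20. In triceps of chow sedentary mice, replicate 4 was low for Rpl3, at 50.7 CPM against 70.2 to 76.9 in the other 4. In triceps of HFD sedentary mice, replicate 5 was low for Rpl3l, at 170 CPM against 233 to 244, and for Rpl22, at 226 CPM against 273 to 284. That library is 1 of the 3 triceps libraries with the most brain marker counts (120 to 157). In scWAT of HFD sedentary mice, replicate 4 was high for Rpl4, at 616 CPM against 492 to 527, and replicate 5 was high for Rps19, at 1549 CPM against 1240 to 1257.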

How the results depend on the processing

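The number of called members depended on scaling, filter and library choice. With total-count scaling it was 0 for HFD in trained scWAT, 20 for HFD in sedentary and 5 in trained vWAT, 3 for training on chow and 53 on HFD in triceps, and 35 for triceps against vWAT, where 11.6%, 12.8%, 4.88%, 1.04%, 9.73% and 75.5% of all genes were called. With mitochondrial genes left out and total-count scaling together the counts were 0, 3, 0, 0, 1 and 21 (7.05%, 8.64%, 2.66%, 0.547%, 5.36% and 70.5% of all genes). Without a filter they were 4 for HFD in sedentary and 25 in trained scWAT and 0 for training on HFD in triceps (3.08%, 3.17% and 1.14% of all genes). DESeq2 called 5 for HFD in trained scWAT, and 1 and 9 for training in triceps on chow and HFD. These stand beside 2.35%, 0.478% and 1.16% of the genes it fitted, without edgeR's filter on low counts. With the assumed run of library codes as a factor, HFD in trained scWAT had 5 and training on HFD in triceps 1 (6.45% and 6.05% of all genes). Within the scWAT run of 9 HFD in trained mice had 0 (0% of all genes). Within the run of 11 it had 6 (3.08%), and HFD in sedentary mice 1 (3.5%). Within the triceps run of 12 training on HFD had 0 (6.47%). Without the libraries with lymphoid markers HFD in trained scWAT had 0 (1.92%) and scWAT against vWAT 51 of 86 (3.36%). The cause of these shifts was not tested. The fits within a run, those of both depots without lymphoid-marker libraries and those without mitochondrial genes on total counts were chosen after seeing the data.

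Leaving out single libraries gave 0 to 3 called members for HFD in sedentary and 0 to 34 in trained scWAT (34 beside 8.23% of all genes, without chow trained replicate 1), 0 to 5 for training on HFD in triceps, 47 to 63 for triceps against vWAT, 2 to 7 for scWAT against vWAT, 0 to 2 for the depot difference and 0 in the other fits. Replicate numbers did not pair the libraries of a tissue: correlations of same-numbered deviations had medians of 0.14, 0.04 and 0.03 in scWAT, vWAT and triceps, and 16, 11 and 7 of 30 pairs exceeded 0.1. With the replicate block HFD in trained scWAT had 8 called members (7.81% of all genes) and training on HFD in triceps 3 (5.56%), without a change of call count elsewhere, and the joint fit without the animal block had 63 for triceps against vWAT (59.3%).

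For triceps against vWAT, total-count scaling reversed Rpl30 (−0.033), Rpl22 (−0.10), Rpl7 (−0.081), Rpl36a (−0.40), Rps27 (−0.14), Rps27l (−0.46), Rplp0 (−0.053), Rplp1 (−0.33), Rplp2 (−0.57), Rpsa (−0.42), Rpl5 (−0.42) and Rps27a (−0.16). With mitochondrial genes left out and total-count scaling together, where the median of all genes moved by −0.71, Rpl36a (−0.15), Rps27l (−0.21), Rplp1 (−0.075), Rplp2 (−0.31), Rpsa (−0.17) and Rpl5 (−0.17) reversed. Rps19 between the depots reversed to −0.19 without the lymphoid-marker libraries. Of the other values of named genes under the alternatives, 10636 kept direction and side of the threshold, 81 became weaker and 77 stronger. Depth limits members near the floor, such as Rpl39l and Rpl10.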
